A study of Mus musculus with 12 samples.

Results

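RNA of lens epithelial cells was compared between mice with a conditional knockout of the fibronectin gene (FNcKO) and wild type (WT) mice directly after the fiber cells had been taken out of the lens (0 h). The comparison was chosen by the labels for genotype and time and holds 6 of the 12 libraries of the series, 3 for each genotype. In this mouse model of cataract surgery the fiber cell mass leaves through a cut in the cornea, and the capsule stays behind with the epithelial cells attached to it. The other 6 libraries were taken at 48 h, and the stated aim of the series was the part of fibronectin in posterior capsular opacification, the clouding of the capsule that can follow cataract surgery. All mice were 2 month old adults. WT mice were C57BL/6. The strain given for FNcKO mice is a mix of 129, FVB/N and C57BL/6. Genotype and strain therefore cannot be told apart in any value below. The sources used here do not give the Cre line, the cells it acts in, the deleted exons or the number of lenses or mice in a library. The design text calls the 3 libraries of a group biological replicates.

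Fibronectin is a large glycoprotein of the extracellular matrix that cells assemble into fibrils through integrins, above all the integrin made of the alpha 5 and beta 1 chains. It is abundant in healing wounds, where it carries growth factors and guides migrating cells. The lens capsule is a basement membrane of collagen IV and laminin made by the lens cells themselves, and the inside of its front part carries the single layer of lens epithelium. The lens has no blood vessels of its own.

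The libraries at 0 h held 8734906 to 10862573 counts. Their log2 levels correlated with r between 0.914 and 0.973 over genes, which share length and composition and are not independent replicates. FNcKO 0 h replicate 3 stood apart on the first principal component (46.3% of the variance), at 69.3 where the other 5 libraries lay between −51.1 and 24.4, and its scaling factor was 0.754 where theirs were 0.918 to 1.04. Its crystallins, the main proteins of fiber cells, summed to 328000 counts per 1e6 scaled counts (CPM), while the other 5 libraries had 123300 to 219800. The epithelial markers Pax6, Foxe3 and Cdh1 were present in every library, with Pax6 at 416, 441 and 510 CPM in WT and 515, 521 and 507 CPM in FNcKO. Photoreceptor RNA was present too: 17 markers summed to 4382, 7283 and 2256 CPM in WT and 1578, 4599 and 1250 CPM in FNcKO. Xist, the RNA of the inactive X chromosome, and 4 Y-linked genes occurred together in WT replicate 1 (511 and 107 CPM), FNcKO replicate 2 (1049 and 81.7 CPM) and FNcKO replicate 3 (269 and 138 CPM), while WT replicate 2 and FNcKO replicate 1 had at most 13.5 CPM of Xist and WT replicate 3 had 1.45 CPM of the Y-linked genes. A combined table deposited beside the single files repeats the counts of FNcKO replicate 1 under the name of WT replicate 1, so WT replicate 1 was read from its own file. The labels do not settle which of these is right, every WT value below includes that library, and the number of calls without it is given with the calls.

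Fn1, the targeted gene (chromosome 1, 71585473 to 71653234, mm10), had 19.0, 23.1 and 15.5 CPM in the WT libraries and 16.8, 9.81 and 8.32 CPM in the FNcKO libraries. Its highest FNcKO library lay above the lowest WT library, so the genotypes overlapped. The mean fell short of a call, with 19.2 ± 3.76 CPM in WT and 11.6 ± 4.51 CPM in FNcKO (SD, n = 3, log2 difference −0.72, SE 0.54, edgeR, BH-adjusted p = 0.609). These levels rest on 129 to 226 counts in WT and 58 to 150 in FNcKO. Counts of the whole gene include reads outside any deleted part, so they do not check the labels.

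Of the receptors, Itga5 of the main fibronectin integrin was at 26.9 ± 3.42 CPM in WT and 26.3 ± 8.03 CPM in FNcKO, and its partner Itgb1 at 479 ± 83.4 and 535 ± 69.4 CPM. Itga4, the alpha chain of the integrin that leukocytes use to bind fibronectin and VCAM1, was 12.6, 26.7 and 12.4 CPM in WT and 4.92, 7.5 and 6.45 CPM in FNcKO. All its WT libraries lay above all FNcKO libraries, and it was not called (log2 −1.46, SE 0.32, edgeR, BH-adjusted p = 0.121). The adjusted p was 0.00511 with DESeq2 and 0.29 with limma-voom. Without WT replicate 2, its highest library, the log2 difference was −1 (edgeR, BH-adjusted p = 0.55). Itga9, an alpha chain that binds tenascin C and the EDA segment of fibronectin, was 11.2 ± 2.99 CPM in WT and 4.40 ± 1.46 CPM in FNcKO without overlap (log2 −1.34, SE 0.34, edgeR, BH-adjusted p = 0.222). The adjusted p was 0.0374 with DESeq2 and 0.372 with limma-voom. For both genes DESeq2, which called 129 genes, was the only alternative that passed. Sdc4, a heparan sulfate coreceptor, had 252 ± 21.3 CPM in WT and 334 ± 14.4 CPM in FNcKO (log2 0.40, edgeR, BH-adjusted p = 0.413). In all, 0 of the 13 genes for fibronectin and its receptors were called and 4 had an unadjusted p under 0.05, 2 in each direction. Of all tested genes 0.144% were called and 11% had an unadjusted p under 0.05, and 16.6% had libraries that did not overlap between the genotypes. The other members of the list, among them Itgav, Itgb3, Itgb5 and Itgb8, had log2 differences between −0.45 and 1.5.

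Across the transcriptome, 21 of 14560 tested genes were called at an adjusted p under 0.05, which is 0.144% of them, with 11 (0.0755%) higher and 10 (0.0687%) lower in FNcKO. At an unadjusted p under 0.05 there were 1603 genes, or 11% of them, with 5.98% higher and 5.03% lower, and the median log2 difference of all genes was 0.01. Each of the 21 changed at least 2-fold, 10 changed at least 4-fold, and all 21 had libraries that did not overlap between the genotypes, as did 16.6% of all tested genes (8.68% above and 7.95% below WT). The direction of each of the 21 held in all 17 alternative analyses. These use the libraries in which the 21 were selected, so a kept direction was favoured in advance and is no separate evidence. The call held in all 17 for Bst1 and Gm9199, in 16 for Igfbp2, in 13 for Lbp and in 11 for C4b, and in 3 to 8 for the others. The number of calls rested on every library: it was 7, 2 and 4 without WT replicates 1, 2 and 3, and 4, 4 and 9 without FNcKO replicates 1, 2 and 3. DESeq2 called 129 genes, 64 higher and 65 lower, and all 21 were among them. Dividing by total counts in place of TMM moved the median of all genes to −0.15 and gave 10 calls, 3 higher and 7 lower. The plot of difference against level shows how few genes leave the main cloud, and the plot of single libraries shows the gap between the genotypes for each called gene.

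**Figure D1:**
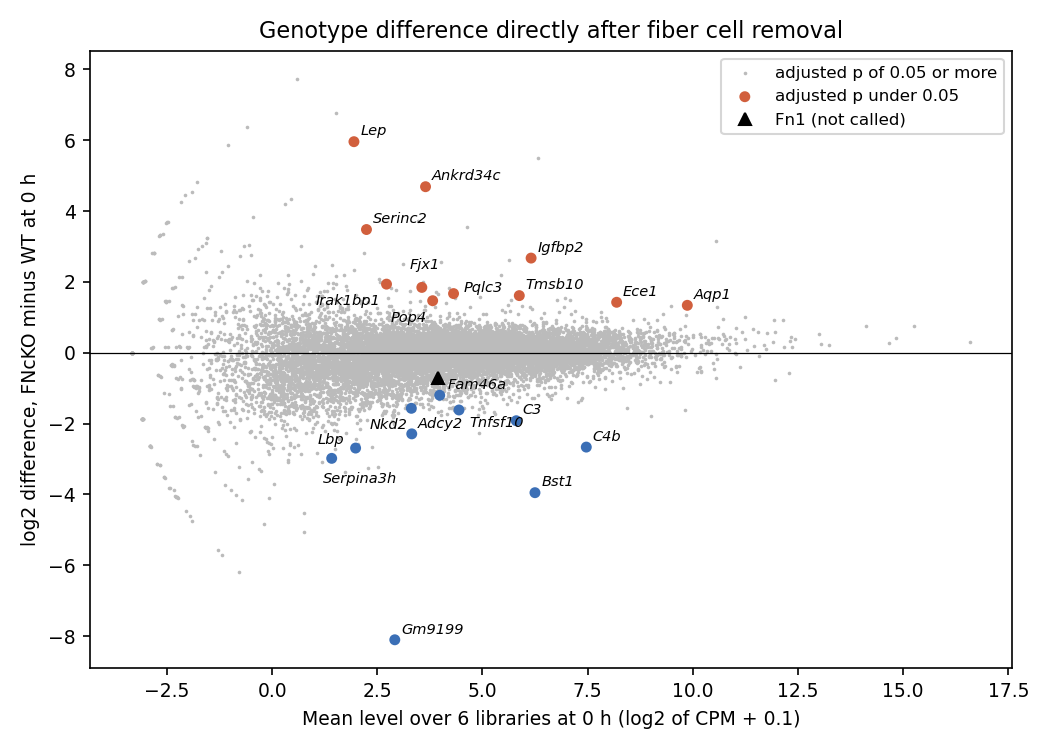
Each point is 1 of 14560 tested genes, with its mean level over the 6 libraries at 0 h (log2 of CPM + 0.1) on the x axis and its log2 difference, FNcKO minus WT, on the y axis. The 11 genes called higher are orange, the 10 called lower are blue, grey points were not called, and the triangle is Fn1 at −0.72, inside the grey cloud.

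**Figure D2:**
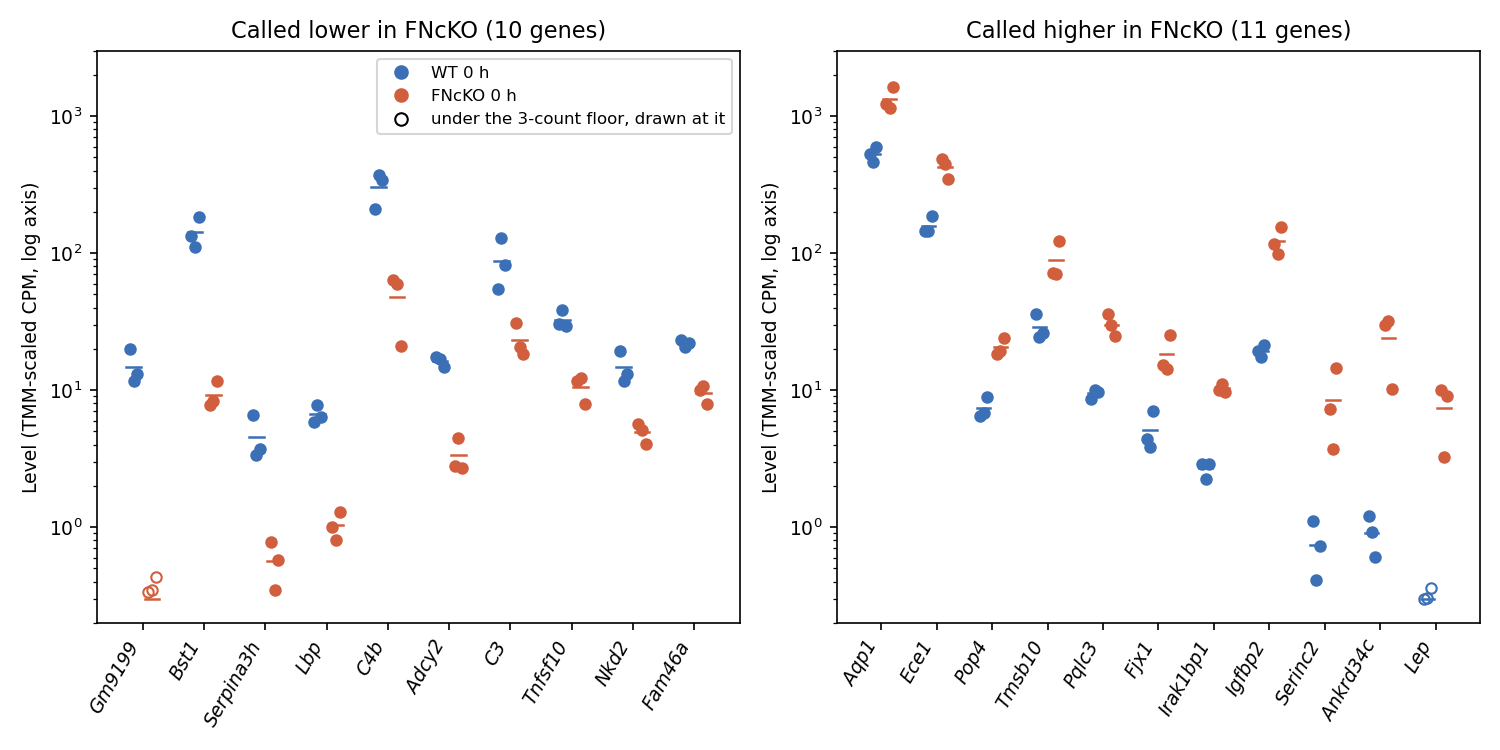
Level in TMM-scaled CPM (log axis) of the 21 called genes in the 3 WT libraries (blue) and the 3 FNcKO libraries (orange) at 0 h, with bars at the means and open circles for libraries at or under 3 counts, drawn at that floor (the 2 means below it, for Gm9199 in FNcKO and Lep in WT, are drawn near it). Serpina3h in FNcKO replicate 2, with 3 counts, is drawn as a filled circle. No WT library overlaps a FNcKO library for any of the 21 genes.

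Of the complement genes, C3 and C4b were called lower. Complement is a chain of plasma proteins that tag and lyse microbes and damaged cells, with C3 at the point where its pathways meet and C4 in the classical and lectin branches. C4b (chromosome 17, 34728381 to 34743897) had 210, 369 and 339 CPM in WT and 64.2, 59.2 and 21.1 CPM in FNcKO. The lowest WT library held more than 3 times the highest FNcKO library, and the fold difference was 6.34 (log2 −2.66, SE 0.38, edgeR, BH-adjusted p = 0.0283). C3 (chromosome 17, 57203973 to 57228136) had 55.0, 128 and 81.8 CPM in WT and 30.7, 20.8 and 18.4 CPM in FNcKO, with WT replicate 2 high. It was 3.78-fold lower in FNcKO (log2 −1.92, SE 0.33, edgeR, BH-adjusted p = 0.0397). C4b lost its call without WT replicate 2 or 3 or FNcKO replicate 1 or 2 (adjusted p of 0.16, 0.0692, 0.0849 and 0.0672). C3 kept it without WT replicate 1 (adjusted p = 0.0404) and lost it when any other library was left out. C4b and its copy C4a are 96.0% identical over the whole C4b transcript, so reads may be split or dropped between them. C4a itself held at most 1.73 CPM in any library at 0 h.

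Of the 17 complement genes tested, 2 were called lower and 0 higher, 12 lay below 0 and the median log2 difference was −0.22 (−0.21 without Masp1, which had no count in FNcKO). Of all tested genes 0.0687% were called lower, 51.2% lay above 0 and the median was 0.01. For 7.95% of them all FNcKO libraries lay below all WT libraries. Cfb, the protease component of the alternative pathway, was 14.7 ± 5.98 CPM in WT and 5.07 ± 1.26 CPM in FNcKO without overlap (log2 −1.52, edgeR, BH-adjusted p = 0.263). Cfi, the protease that inactivates C3b and C4b, was 8.11 ± 3.05 and 3.20 ± 0.238 CPM, again without overlap (log2 −1.34, edgeR, BH-adjusted p = 0.348). On the other side of 0 lay Cd59a, an inhibitor of the membrane attack complex, with 66.2 ± 14.8 CPM in WT and 104 ± 13.1 CPM in FNcKO (log2 0.65, edgeR, BH-adjusted p = 0.311). The sum over the list did not follow C3 and C4b, at 8521 ± 1140 CPM in WT and 9705 ± 1200 CPM in FNcKO. Clu, a secreted chaperone and complement inhibitor, held 7689 ± 1165 and 9210 ± 1162 CPM of it.

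The 250 bases before the start of C3 are shown because C3 was called and has a promoter entry in the RefSeq table (GRCm38.p6), which C4b lacks there; 15 of the 21 called genes matched. The capitals mark a match to TTGCNNAA, a C/EBP type motif, found 45 bases before the start. Both strands were searched, and 9.56% of 32851 promoter windows of this length hold a match. Matches to TTCNNNGAA (STAT type), TGANTCA (AP-1 type) and GGGNNTTCC (NF-kB type) were not in this window. The sequence is that of the reference genome at chr17:57228137-57228386 on the minus strand. A match is a description of letters, not a binding site.
C3 promoter: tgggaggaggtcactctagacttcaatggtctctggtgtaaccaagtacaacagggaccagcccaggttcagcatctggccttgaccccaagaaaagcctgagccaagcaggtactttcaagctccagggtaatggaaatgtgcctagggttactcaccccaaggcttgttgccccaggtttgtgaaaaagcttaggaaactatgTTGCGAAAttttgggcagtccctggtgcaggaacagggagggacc

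Lbp, the plasma protein that hands bacterial lipopolysaccharide to CD14 (chromosome 2, 158306493 to 158332852), had 5.82, 7.85 and 6.39 CPM in WT and 1.01, 0.808 and 1.29 CPM in FNcKO. The WT libraries lay close together and all FNcKO libraries lay far below them, with a 6.46-fold difference (log2 −2.69, SE 0.35, edgeR, BH-adjusted p = 0.00892). The call was lost without WT replicate 2 (adjusted p = 0.0622), FNcKO replicate 1 (0.0849) or FNcKO replicate 2 (0.055). Serpina3h, a member of the mouse cluster of genes related to the human acute phase inhibitor alpha-1-antichymotrypsin (chromosome 12, 104247896 to 104254405), had 6.62, 3.37 and 3.73 CPM in WT and 0.783, 0.346 and 0.574 CPM in FNcKO. That was a 7.90-fold difference (log2 −2.98, SE 0.46, edgeR, BH-adjusted p = 0.0283), on only 3 to 7 counts in the FNcKO libraries, and the call was lost when any 1 of the 6 libraries was left out. GENCODE M21 lists Serpina3h as a transcribed pseudogene, and 54.3% of its transcript is matched at 95% identity or more by other genes, the best match being Serpina3i, so its own level is uncertain. Of the other genes of the cluster, Serpina3c, Serpina3f, Serpina3i and Serpina3m were chosen after their values were seen. In every FNcKO library they were also below all WT libraries, as were 7.95% of all tested genes. They had 0.774 to 1.30 CPM on average in WT and 0 to 0.125 CPM in FNcKO. That is 4 to 20 counts in a WT library and 0 to 2 in a FNcKO library, under the floor of 3 counts. None of these genes was called at 0 h. Serpina3g beside them was 0.101 ± 0.1 CPM in WT and 0.0373 ± 0.0645 CPM in FNcKO with overlap, Serpina3k had too few counts for a test, and Serpina3b and Serpina3j were at 0 in every library at 0 h. Serpina3n of the same cluster was 127, 190 and 80.8 CPM in WT and 276, 96.0 and 37.3 CPM in FNcKO, with overlapping libraries. Of 30 tested cytokine, chemokine and acute phase genes 0 were called. Lcn2, an iron carrier of the acute phase, was 85.0 ± 38.8 CPM in WT and 42.0 ± 13 CPM in FNcKO with overlapping libraries. Cxcl14, a chemokine of epithelia, lay the other way at 57.4 ± 0.403 CPM in WT and 160 ± 47.1 CPM in FNcKO (log2 1.48, edgeR, BH-adjusted p = 0.296).

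The gene with the smallest adjusted p was Bst1, also known as CD157, an ectoenzyme that makes and cleaves cyclic ADP-ribose (chromosome 5, 43818893 to 43843468). It had 134, 110 and 184 CPM in WT and 7.83, 8.31 and 11.6 CPM in FNcKO. All 3 FNcKO libraries (70 to 81 counts) lay far below the lowest WT library (1080 counts), and the fold difference was 15.5 (log2 −3.95, SE 0.30, edgeR, BH-adjusted p = 6.89e-05). Its paralog and neighbour Cd38 was at 1.98 ± 0.375 CPM in WT and 1.75 ± 0.0880 CPM in FNcKO. Bst1 overlaps Fbxl5 on the other strand in GENCODE M21, and the sources used here do not give the strand setting of the counting. Gm9199, a predicted gene on chromosome 14 (73025603 to 73026890), had 199, 114 and 108 counts in WT and 0, 1 and 0 counts in FNcKO. The ratio of the pooled levels was 369 (95% exact binomial interval 65.8 to 14600, for counting error only), and it was called as well (edgeR, BH-adjusted p = 0.000207). Of 832 tested genes with predicted or Rik names, Gm9199 was the single one called, and 11.2% had an unadjusted p under 0.05.

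Interferon response genes lay mostly below 0. Of 25 tested, 20 had a negative log2 difference with a median of −0.53, beside 0.01 for all genes, and 6 lay lower at an unadjusted p under 0.05 (5.03% of all genes did), while 0 were called. Their summed level was 316, 291 and 321 CPM in WT and 264, 238 and 245 CPM in FNcKO. The highest FNcKO library stayed below the lowest WT library (exact permutation test, two-sided, p = 0.1, the smallest that 3 against 3 allows; 0.450 after adjustment over 36 lists). Mx2, an antiviral GTPase, was 1.89 ± 0.526 CPM in WT and 0.4 ± 0.155 CPM in FNcKO (log2 −2.19, edgeR, BH-adjusted p = 0.217). Irf9, the DNA-binding part of the interferon-activated factor ISGF3, was 23.5 ± 2.97 and 14.7 ± 0.345 CPM (log2 −0.67, edgeR, BH-adjusted p = 0.267). The summed level of antigen presentation genes was 489.7 ± 59.4 CPM in WT and 487.8 ± 39.7 CPM in FNcKO, and 0 of 20 were called.

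Tnfsf10, the death receptor ligand TRAIL, had 30.4, 38.3 and 29.4 CPM in WT and 11.7, 12.2 and 7.89 CPM in FNcKO, a 3.06-fold difference (log2 −1.62, SE 0.25, edgeR, BH-adjusted p = 0.0283). Its receptor Tnfrsf10b was at 21.9 ± 4.55 CPM in WT and 24.0 ± 4.47 CPM in FNcKO. Icam1, an adhesion molecule for leukocytes, lay just outside the threshold at 9.75 ± 2.34 CPM in WT and 3.14 ± 0.149 CPM in FNcKO (log2 −1.63, SE 0.30, edgeR, BH-adjusted p = 0.0632). Adcy2, an adenylyl cyclase that makes cyclic AMP, had 17.6, 16.9 and 14.8 CPM in WT and 2.80, 4.5 and 2.73 CPM in FNcKO, the fold being 4.89 (log2 −2.29, SE 0.37, edgeR, BH-adjusted p = 0.0283). Of the other 8 adenylyl cyclase genes, from Adcy1 to Adcy9, none was called. Adcy3, Adcy6 and Adcy8 were lower at an unadjusted p under 0.05, as were 5.03% of all tested genes. Their log2 differences were −0.68, −0.49 and −1.53, and their libraries overlapped. Nkd2, a negative regulator of Wnt signalling, was 14.7 ± 4.10 CPM in WT and 4.93 ± 0.852 CPM in FNcKO (log2 −1.57, edgeR, BH-adjusted p = 0.0494), while its paralog Nkd1 was at 4.20 ± 1.52 and 4.24 ± 0.189 CPM. Fam46a, now named Tent5a and coding for a poly(A) polymerase, was 21.9 ± 1.29 CPM in WT and 9.52 ± 1.47 CPM in FNcKO (log2 −1.2, edgeR, BH-adjusted p = 0.0283). Tnfsf10, Adcy2, Nkd2 and Fam46a each lost the call when any 1 of the 6 libraries was left out.

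Among the 11 genes called higher, Aqp1 and Ece1 were above 100 CPM in every library. Aqp1, the water channel of the lens epithelium (chromosome 6, 55336299 to 55348555), had 525, 465 and 600 CPM in WT and 1234, 1152 and 1638 CPM in FNcKO. The lowest FNcKO library was almost double the highest WT library, and the fold difference was 2.53 (log2 1.34, SE 0.21, edgeR, BH-adjusted p = 0.0283). Mip and Aqp5, the other lens aquaporins, were 2808 ± 763 and 63.9 ± 1.45 CPM in WT and 4158 ± 1830 and 93.8 ± 25.8 CPM in FNcKO and were not called. Ece1, the membrane protease that turns big endothelin into endothelin (chromosome 4, 137862237 to 137965229), had 144, 146 and 186 CPM in WT and 486, 445 and 346 CPM in FNcKO, a 2.69-fold difference (log2 1.43, SE 0.23, edgeR, BH-adjusted p = 0.0283). Of the peptides it processes, Edn1 was 5.91 ± 0.666 CPM in WT and 13 ± 1.82 CPM in FNcKO without overlap (log2 1.13, edgeR, BH-adjusted p = 0.295), and Edn2 was 2.14 ± 1.04 and 0.284 ± 0.0523 CPM without overlap the other way (log2 −2.87, edgeR, BH-adjusted p = 0.402). Edn3 was 22.4 ± 10.8 and 14.6 ± 2.92 CPM with overlap (log2 −0.62, edgeR, BH-adjusted p = 0.690). The receptors Ednra and Ednrb had log2 differences of 0.03 and −0.84 and were not called. Aqp1 lost the call when any 1 library was left out. Ece1 kept it without FNcKO replicate 3 (adjusted p = 0.046) and lost it when any other was left out.

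Igfbp2, a secreted protein that binds insulin-like growth factors (chromosome 1, 72824480 to 72852471), had 19.3, 17.3 and 21.3 CPM in WT and 117, 98.3 and 154 CPM in FNcKO. The 3 WT libraries lay within 4 CPM of each other and every FNcKO library was more than 4 times the highest of them. The fold difference was 6.38 (log2 2.67, SE 0.30, edgeR, BH-adjusted p = 0.00259), and it missed the threshold in 1 of 17 alternatives, without WT replicate 2 (log2 2.60, adjusted p = 0.0596). Its neighbour Igfbp5 was 574 ± 326 CPM in WT and 699 ± 451 CPM in FNcKO with overlapping libraries, and Igfbp7 was 2710.5 ± 845 and 5158 ± 2217 CPM (log2 0.93, edgeR, BH-adjusted p = 0.454). Igfbp3, Igfbp4 and Igfbp6 and the ligands and receptor Igf1, Igf2 and Igf1r were not called, and Igfbp1 was not tested, with at most 0.714 CPM in any library. The promoter of Igfbp2 is shown as that of the 1 called gene within 10 Mb of Fn1. Its capitals mark 3 matches to GGGCGG, a GC box, with both strands searched; 32.7% of promoter windows hold at least 1 match. The window is chr1:72824230-72824479 on the plus strand (RefSeq, GRCm38.p6). It ends at the gene start given in the deposited files, which lies 5′ of the start in GENCODE M21.
Igfbp2 promoter: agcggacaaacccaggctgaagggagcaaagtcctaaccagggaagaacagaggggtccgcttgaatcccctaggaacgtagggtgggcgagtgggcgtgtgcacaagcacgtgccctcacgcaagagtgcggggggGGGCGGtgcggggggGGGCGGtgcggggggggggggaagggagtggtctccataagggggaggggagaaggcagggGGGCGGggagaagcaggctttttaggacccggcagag

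Lep, which codes for leptin, the hormone known from fat cells, had 3, 0 and 0 counts in WT and 89, 28 and 63 counts in FNcKO (chromosome 6, 29060221 to 29073876). The ratio of the pooled levels was 68.5 (95% exact binomial interval 23.1 to 335, for counting error only), and the call was close to the threshold (edgeR, BH-adjusted p = 0.0494) and was lost when any 1 library was left out. Its receptor Lepr was 2.35 ± 1.26 CPM in WT and 1.15 ± 1.13 CPM in FNcKO. Ankrd34c, an ankyrin repeat gene (chromosome 9, 89728249 to 89738475), had 1.2, 0.918 and 0.602 CPM in WT and 30, 31.7 and 10.2 CPM in FNcKO, a 25.8-fold difference (log2 4.69, SE 0.75, edgeR, BH-adjusted p = 0.0379). It kept its call without FNcKO replicate 3, its lowest FNcKO library (adjusted p = 0.046), and lost it when any other was left out. Serinc2, of a family of membrane proteins named for serine incorporation into lipids, had 1.10, 0.408 and 0.723 CPM in WT and 7.27, 3.69 and 14.6 CPM in FNcKO (log2 3.48, SE 0.60, edgeR, BH-adjusted p = 0.0447). Its FNcKO libraries were widely spread, and among the fits that left out 1 library it kept its call only without FNcKO replicate 2 (adjusted p = 0.0426). Serinc1, Serinc3 and Serinc5 had log2 differences from −0.19 to 0.24.

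The other 5 genes called higher have roles in RNA, the cytoskeleton and signalling, and each lost its call when any 1 of the 6 libraries was left out. Tmsb10, a small protein that binds actin monomers, was 35.9, 24.5 and 26.1 CPM in WT and 72.1, 70.8 and 122 CPM in FNcKO (log2 1.61, SE 0.26, edgeR, BH-adjusted p = 0.0283). Of its transcript 59.9% is matched by near-identical copies, so its level is uncertain, and Tmsb4x of the same family was 111 ± 20.8 and 167 ± 65.8 CPM. Pop4, a subunit of ribonuclease P, was 7.42 ± 1.30 CPM in WT and 20.6 ± 3.11 CPM in FNcKO (log2 1.47, edgeR, BH-adjusted p = 0.0283). Fjx1, the four-jointed box gene, was 5.09 ± 1.66 and 18.3 ± 6.04 CPM (log2 1.85, edgeR, BH-adjusted p = 0.0283). Pqlc3, which codes for a PQ loop repeat membrane protein, was 9.46 ± 0.732 and 30.1 ± 5.68 CPM (log2 1.67, edgeR, BH-adjusted p = 0.0397). Irak1bp1, named for its binding to the kinase IRAK1 of interleukin 1 and toll-like receptor signalling, was 2.68 ± 0.379 and 10.3 ± 0.694 CPM (log2 1.94, edgeR, BH-adjusted p = 0.0283), and its 3 libraries lay close together in each genotype.

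Lens genes lay mostly above 0. Of 17 lens epithelial genes, 14 were above 0 (median 0.25), 1 was called higher, which is Aqp1, and 0 lower, and their sum was 11660 ± 1820 CPM in WT and 13660 ± 490.0 CPM in FNcKO. Cdh1, the cadherin of epithelial junctions, was 380 ± 68.2 CPM in WT and 629 ± 56.6 CPM in FNcKO without overlap (log2 0.73, edgeR, BH-adjusted p = 0.403). Of 18 fiber cell genes 12 were above 0 (median 0.27), and of 16 crystallins 15 were (median 0.37), beside 51.2% of all genes. None of either list was called by edgeR (0 at an unadjusted p under 0.05), and both lists overlapped between the genotypes in their sums. The log2 difference of the crystallin sum was 0.33, and it was −0.02 without FNcKO replicate 3, the library with the most crystallin RNA. For the sum of fiber cell genes it was 0.31, and 0.19 without that library. Crystallins vary together between libraries, so their counts above 0 are not separate observations. Of 30 fibrillar and matricellular matrix genes 0 were called, with 3 higher and 4 lower at an unadjusted p under 0.05 and a median of −0.07. Col1a2, a chain of collagen I, was 297 ± 49.9 CPM in WT and 182 ± 26.8 CPM in FNcKO (log2 −0.71, edgeR, BH-adjusted p = 0.218), while Ctgf, a matricellular growth factor, was 147 ± 15.5 and 268 ± 43.2 CPM (log2 0.87, edgeR, BH-adjusted p = 0.311). Among 25 basement membrane and capsule genes 0 were called. Timp1, an inhibitor of matrix metalloproteinases, was 4.11, 3.77 and 6.51 CPM in WT and 22.8, 17.3 and 16.8 CPM in FNcKO (log2 1.99, SE 0.36, edgeR, BH-adjusted p = 0.0632). Of 30 genes for TGF-beta and BMP signalling, the route to the scarring form of lens epithelium, 0 were called with a median of −0.07, and 0 of 15 cytoskeletal genes of smooth muscle type were called, with Acta2 at 198 ± 64.0 and 203 ± 33.1 CPM.

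Of the pathway lists, antioxidant enzymes had the widest log2 difference in summed level. Of 30 genes for glutathione and antioxidant enzymes, 25 had a log2 difference above 0 (51.2% of all tested genes did) and 9 were higher at an unadjusted p under 0.05, where 5.98% of all genes were, but 0 were called. Their sum was 7349, 6075 and 6617 CPM in WT and 10890, 9389 and 10400 CPM in FNcKO, so that every FNcKO library lay above every WT library (log2 0.62, exact permutation test, two-sided, p = 0.1, adjusted 0.450). Aldh3a1, an aldehyde dehydrogenase known as a crystallin of the cornea, was 876 ± 203 CPM in WT and 2163 ± 446 CPM in FNcKO (log2 1.30, SE 0.36, edgeR, BH-adjusted p = 0.268). Gsto1, a glutathione transferase, was 12.8, 9.38 and 24.8 CPM in WT and 64.1, 28.7 and 121 CPM in FNcKO (log2 2.19, SE 0.48, edgeR, BH-adjusted p = 0.165). Cornea and conjunctiva markers summed to 17.15, 15.8 and 20.8 CPM in WT and 38.2, 19.2 and 62.5 CPM in FNcKO, with Krt4, Krt5 and Krt15 of the 5 tested markers above 0. The defining markers Krt12 and Kera were at 0 to 1.73 CPM and at 0 in every library. The part of corneal RNA in the level of Aldh3a1 was not tested. Cell cycle genes leaned the same way, with 27 of 30 above 0, a median of 0.56, sums of 1291, 1112 and 1262 CPM in WT and 1863, 1651 and 1351 CPM in FNcKO, and 0 called. Of these 30, 1 was higher at an unadjusted p under 0.05, where 5.98% of all genes were, and the sums gave an exact permutation p of 0.1 (two-sided, adjusted 0.450). Immediate early genes had 16 of 22 above 0 and 0 called, and Nr4a1, a nuclear receptor of this class, was 3.51, 3.67 and 6.87 CPM in WT and 29.7, 48.9 and 3.73 CPM in FNcKO, with FNcKO replicate 3 at the WT level. The plot of summed levels shows these lists beside all others.

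**Figure D3:**
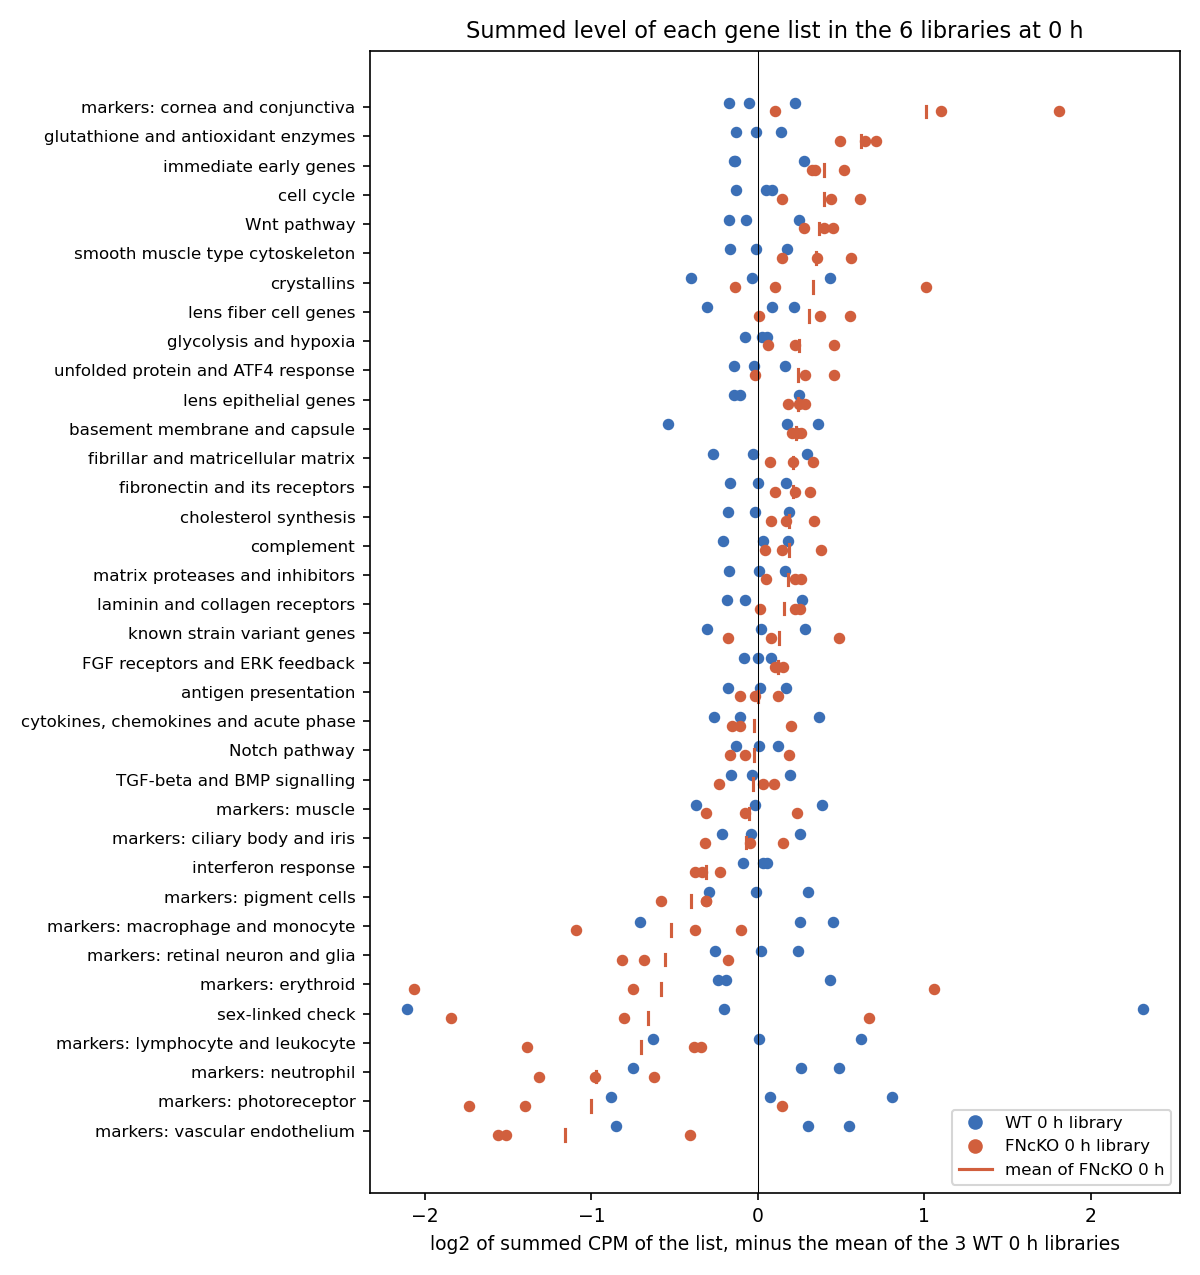
For each gene list, the log2 of its summed CPM in each library at 0 h minus the mean of the 3 WT libraries (x axis), with WT libraries in blue, FNcKO libraries in orange and a bar at the FNcKO mean. Antioxidant enzymes sit to the right (mean 0.62), interferon genes to the left (−0.31), and photoreceptor and endothelial markers farther left (−1.0 and −1.16) with widely spread libraries.

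Markers of several other eye tissues lay mostly below 0. Cornea and conjunctiva markers did not, with 3 of 5 tested above 0 (median 1.01). All 6 tested ciliary body and iris markers lay below 0 (median −0.38), but their sum was 2426 ± 407 CPM in WT and 2312 ± 372 CPM in FNcKO. In a bulk sample fewer cells of a type and less RNA per cell cannot be told apart. All 17 photoreceptor markers had negative log2 differences (median −0.95), as did all 10 tested retinal neuron and glia markers (median −0.80), 8 of 10 vascular endothelium markers (median −1.34) and 13 of 14 macrophage and monocyte markers (median −0.58), with 0 called in each list. The sums overlapped between the genotypes for photoreceptor markers (range 2256 to 7283 CPM in WT, 1250 to 4599 CPM in FNcKO), endothelium (20.5 to 54.0 and 12.5 to 27.8 CPM), macrophages (84.5 to 188 and 64.7 to 128 CPM), and retinal neurons and glia (2008 to 2837 and 1365 to 2126 CPM). Those of 13 pigment cell markers did not overlap, at 344, 428 and 284 CPM in WT and 279.6, 280.2 and 232 CPM in FNcKO, with 10 of 13 below 0 (log2 of the sum −0.40, exact permutation test, two-sided, p = 0.1, adjusted 0.450). C1qa, made mainly by macrophages, was 10.7 ± 3.83 CPM in WT and 9.70 ± 3.93 CPM in FNcKO, and Cd163, a scavenger receptor of macrophages, was 7.16 ± 2.12 and 2.45 ± 1.10 CPM (log2 −1.55, edgeR, BH-adjusted p = 0.347). With the summed photoreceptor level as a covariate, an analysis chosen after seeing the data, 9 genes were called, all among the 21, with C3 at log2 −1.90 (adjusted p = 0.0953, where −1.92 was reported above) and C4b at −2.67 (0.0493). With the Y-linked level as a covariate, also chosen after seeing the data, 4 were called, and C3 at log2 −1.91 (0.0812) and C4b at −2.56 (0.0511) missed the threshold with differences about as large as without it.

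Since genotype and strain coincide, the position of the calls was described. Genes close to a targeted locus are inherited with it in breeding. Within 10 Mb of the start of Fn1, 106 genes were tested. Igfbp2, 1.24 Mb away, was the 1 gene called, and 12 (11.3%) had an unadjusted p under 0.05, beside 11% of all genes. Of the 8 tested genes within 1 Mb, Pecr had an unadjusted p under 0.05, at 5.08 ± 1.08 CPM in WT and 9.23 ± 3.69 CPM in FNcKO. On chromosome 9, Irak1bp1, Fam46a and Ankrd34c lay within 6.9 Mb of each other, with Fam46a lower and the others higher in FNcKO. Adcy2 and Nkd2 lay 5.2 Mb apart on chromosome 13, and Ece1 and Serinc2 7.6 Mb apart on chromosome 4. The other pairs of called genes that share a chromosome lay 17.6 to 87.3 Mb apart. How often genes drawn at random would lie this close was not tested. Of the 384 tested genes within 1 Mb of a called gene, 48 (12.5%) had an unadjusted p under 0.05. They were not spread evenly: Serpina3h had 8 of them among its 18 neighbours, 7 of these lower in FNcKO. The 8 were Clmn, Dicer1, Snhg10, Syne3, Serpina3c, Serpina3f, Serpina3i and Serpina3m. C4b had 7 among 96, and Gm9199 and Bst1 had 0 among 8 each. Per chromosome the share of tested genes with an unadjusted p under 0.05 ran from 8.54% on chromosome 11 to 13.2% on chromosome 2.

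**Figure D4:**
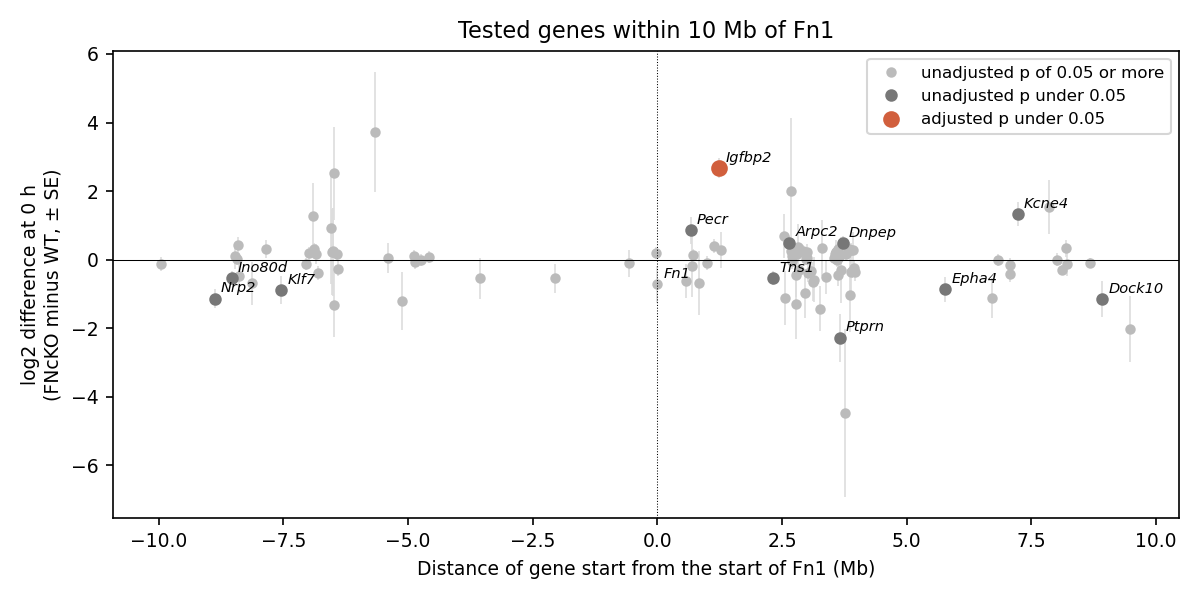
Log2 difference at 0 h (y axis, FNcKO minus WT, ± SE) of the 106 tested genes within 10 Mb of Fn1 by the distance of their start from that of Fn1 in Mb (x axis). Igfbp2 at 1.24 Mb (orange) is the 1 gene called, and the 12 genes with an unadjusted p under 0.05, dark grey or orange, lie on both sides of Fn1.

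Of 11 genes with well-known variants among laboratory strains, 7 were tested and 0 were called. Nnt, a mitochondrial transhydrogenase with a deletion in C57BL/6J, was 98.0 ± 10.1 CPM in WT and 111 ± 8.09 CPM in FNcKO. Bfsp2, a lens filament gene with a known deletion in 129 strains, was 376 ± 147 and 520 ± 189 CPM, and Pde6b, a rod gene mutated in FVB/N, was 182 ± 113 and 74.4 ± 62.8 CPM with all other photoreceptor markers also below 0. Tyr was 6.42 ± 1.72 and 5.74 ± 0.422 CPM, Glo1 was 156 ± 24.0 and 188 ± 37.3 CPM, and Casp4 and Ifi202b stayed under 1 CPM in every library. Hc, Disc1, H2-Ea-ps and a (nonagouti) were not tested, as their counts were low. Hc, the complement component C5, was 1.0, 0.816 and 2.2 CPM in WT and 0, 0.346 and 0.574 CPM in FNcKO. No gene was at 0 counts in all libraries of one genotype with 10 or more in each of the other at 0 h. Eno1b, named after its values were seen, was just outside the threshold: it had 32, 34 and 30 counts in WT and 1206, 1469 and 1145 counts in FNcKO at 0 h, a log2 difference of 5.51 (SE 0.95, edgeR, BH-adjusted p = 0.0740). It is a near-identical copy of the glycolytic gene Eno1, which held 3 to 8 counts in the same libraries, so the counts assigned to Eno1b may come from either. At 48 h Eno1b had 50, 39 and 549 counts in WT and 1722, 1491 and 2094 counts in FNcKO, with WT replicate 3 apart from its group.

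The group means at 48 h come from other libraries than those at 0 h and show which differences were present in both sets. Both comparisons come from the same fit over 12 libraries, so they share the estimate of each gene's spread. A gene with a small spread is favoured for a call at both times, so these calls are not independent. Of the 21 genes, 18 had the same sign at 48 h and 6 were called at both times in the same direction: Gm9199, Bst1, Serpina3h and Lbp lower, and Ece1 and Ankrd34c higher. At 48 h 35 of 14560 genes (0.24%) were called, and 5.47% had an unadjusted p under 0.05. Libraries did not overlap in the direction of 0 h for 12 of the 21, where 9.74% of all genes did not overlap in either direction. Bst1 had 17.0, 25.5 and 22.6 CPM in WT at 48 h and 5.49, 2.51 and 5.50 CPM in FNcKO (SE 0.30, edgeR, log2 −2.26 with BH-adjusted p = 0.00483). Lbp had 41.3, 40.9 and 23 CPM in WT and 3.38, 2.40 and 4.12 CPM in FNcKO (log2 −3.40, SE 0.31, edgeR, BH-adjusted p = 0.000141). Serpina3m and Serpina3f, which were not called at 0 h, were called at 48 h with log2 differences of −6.56 and −7.29 (edgeR, BH-adjusted p = 1.48e-05 and 0.000141).

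For 10 of the 21 genes the log2 difference at 48 h was under 0.5 times that at 0 h or had the other sign, and the test of the difference between the times passed for 0 of the 21 after adjustment over all genes (edgeR, 0.0% of 14560 genes passed). The 21 were selected for their difference at 0 h, which favours smaller differences at 48 h in advance. C3 was at 1090.0, 778 and 961 CPM in WT and 718, 872 and 1290.5 CPM in FNcKO at 48 h, with overlap (log2 0.03; test of the change in difference, edgeR, BH-adjusted p = 0.6). C4b was at 182 ± 43.2 and 108 ± 24.0 CPM at 48 h (log2 −0.76, edgeR, BH-adjusted p = 0.95; change in difference, 0.82). Igfbp2 was at 38.6, 61.8 and 53.5 CPM in WT and 103, 58.6 and 45.4 CPM in FNcKO at 48 h, with overlap (log2 0.43; change in difference −2.25, edgeR, BH-adjusted p = 0.284). Aqp1 was at 464 ± 53.1 and 600 ± 98.0 CPM at 48 h with overlapping libraries. Lep had 2, 0 and 0 counts in WT and 2, 0 and 0 counts in FNcKO at 48 h. The plot of both times shows the 6 genes called at both and the group with values near 0 at 48 h. Bst1, 1 of the 6, had a log2 difference of −3.95 at 0 h and −2.26 at 48 h.

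**Figure D5:**
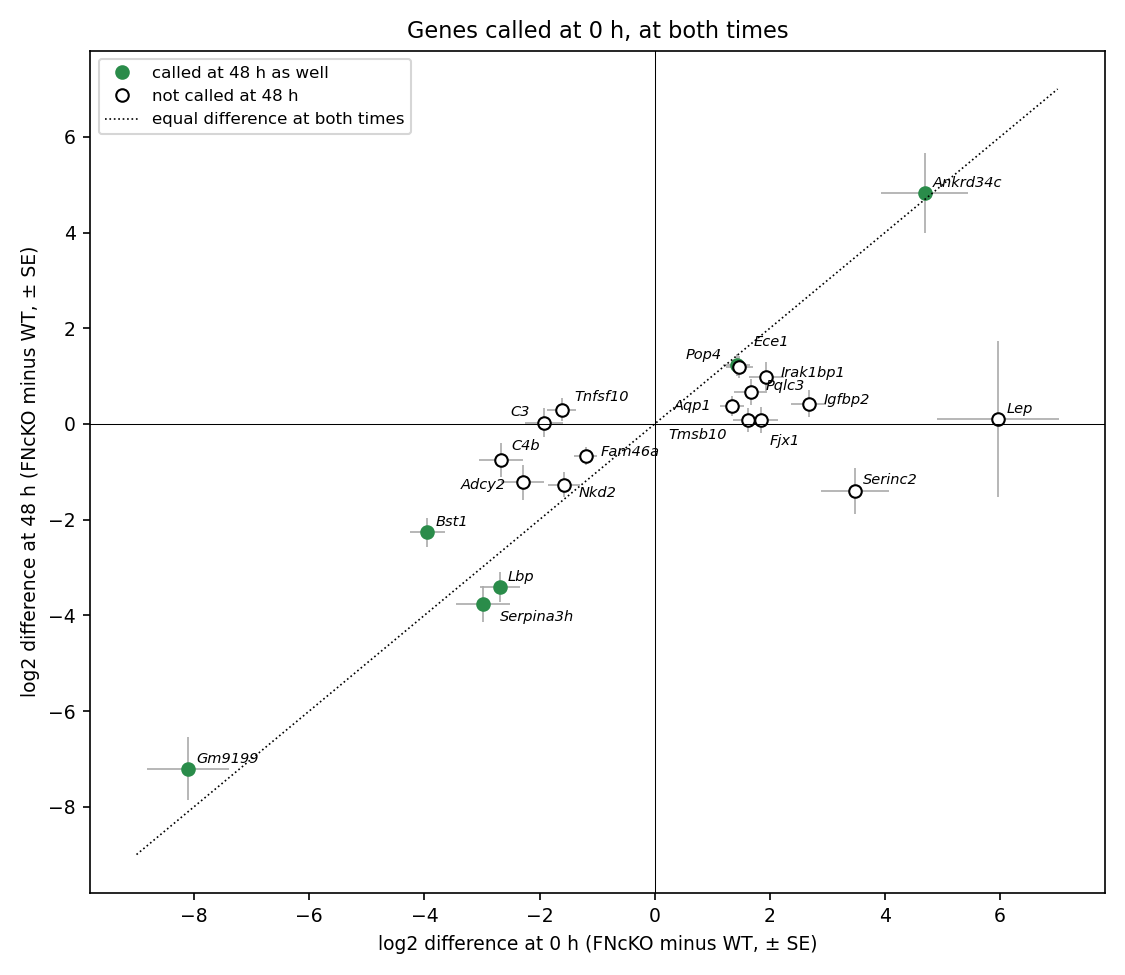
Log2 difference (FNcKO minus WT, ± SE) at 0 h (x axis) and at 48 h (y axis) of the 21 genes called at 0 h, green where also called at 48 h. The 6 green points lie in the same direction at both times, while Serinc2 at 3.48 and −1.39 lies on the other side of 0 at 48 h.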

How the data were processed

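RNA from lens capsules with attached epithelial cells was sequenced from stranded TruSeq libraries on an Illumina HiSeq, per the labels' protocols. The authors deposited, per library, whole-number read counts for 24147 genes and RPKM values, per the file headers; RPKM served only to check the counts. The submitters' processing notes name HTSeq 0.6.1p1, TopHat2 2.1.0, edgeR 3.16.5, Trim Galore 0.4.4, bedtools 2.17, SAMtools 1.4 and the build mm10, without roles. The sources used here do not give the annotation, the strand setting or how multiply mapped reads were handled. Counts were taken from the single files of the 12 libraries.

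Counts were analysed with edgeR 4.0.16 in R 4.3.3: filterByExpr, TMM, a robust quasi-likelihood fit of 4 group means over 12 libraries, and Benjamini-Hochberg adjustment over 14560 genes, called at 0.05. The fit was also run on counts simulated with its own estimates of mean and spread. Such counts hold no outlying library, so they cannot show how the fit handles one. The SE of a log2 difference is its size over the square root of F, an approximation. Levels are TMM-scaled CPM, mean ± SD over 3 libraries; 3 counts, the limit that a count of 0 allows, are 0.301 to 0.43 CPM at 0 h. P-values measure the spread between the libraries. Alternatives were other filters, scalings, tools (DESeq2 1.42.0, limma 3.58.1) and covariates, a replicate block and leaving out each library. Named genes were those called with libraries that do not overlap and at least 1 CPM in the higher group (up to 15 in each direction), every called gene within 10 Mb of Fn1, up to 4 called members of each list, and all fibronectin receptor and strain variant genes. Others are paralogs, partners, list members with large differences, or genes just outside the threshold, chosen after their values were seen. The comparison and the 36 gene lists were chosen with earlier results of these data known.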

Additional observations from a re-analysis of the deposited data

Results flagged for a closer look

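Serinc2 differed between the genotypes in opposite directions at the 2 times. At 0 h every FNcKO library lay above every WT library (0.745 ± 0.348 CPM in WT and 8.53 ± 5.58 CPM in FNcKO), and at 48 h every FNcKO library lay below every WT library (21.5 ± 10.7 and 8.17 ± 1.54 CPM). The log2 difference was 3.48 at 0 h and −1.39 at 48 h, where it was not called (edgeR, BH-adjusted p = 0.615). The test of the change in difference gave −4.87 on the log2 scale with an unadjusted p of 2.52e-05 and did not pass after adjustment over all genes (edgeR, BH-adjusted p = 0.186). Serinc2 was selected for its difference at 0 h, which that test uses again.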

How the results depend on the processing

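Of the 21 called genes, all kept their sign under all 17 alternatives, 2 of which were chosen after seeing the data. The genes were selected in the same libraries, which favours a kept sign in advance. The number called, 21 (11 higher, 10 lower), became 10 (3 higher, 7 lower) with total counts, 129 (64 and 65) with DESeq2, 7 (4 and 3) with limma-voom, 30 (18 and 12, 15 shared with the 21) with only the 6 libraries at 0 h, 38 (18 and 20) with the crystallin level as a covariate, 9 (3 and 6) with the photoreceptor level and 4 (1 and 3) with the Y-linked level, the last 2 being the added ones. No filter on low counts gave 29 (15 and 14), a mean of at least 1 CPM 20 and RLE size factors 19. Leaving out 1 library gave 2 to 9 calls, 0 to 5 of them higher and 2 to 6 lower; the cause was not tested, beyond fewer libraries in the fit. With total counts the log2 difference of summed levels became 0.08 for lens epithelial genes, 0.05 for fibronectin and its receptors, 0.02 for matrix proteases and inhibitors, −0.04 for FGF receptors and ERK feedback, −0.18 for Notch, −0.47 for interferon, −0.16 for antigen presentation, 0.46 for antioxidant enzymes, 0.09 for glycolysis and 0.03 for cholesterol synthesis, beside a shift of the median of all genes to −0.15. Fn1 stayed uncalled, with log2 values from −1.08 to −0.51. Of 317 values of 19 named genes that were not called, 2 passed the threshold and 15 had the other sign.

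With the replicate number as a block, 14 genes were called (9 higher, 5 lower), 12 of them among the 21. The numbers were not shown to pair the libraries: deviations of same-numbered libraries from their group means correlated at −0.101, 0.291 and 0.145, and WT replicate 1 correlated better with FNcKO replicate 3 (0.0709) than with its own number.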

Other observations

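Some abundant genes differed in their means by more than 2-fold without a call; they were picked after their values were seen. R3hdml, which codes for a secreted protein of the cysteine-rich CAP family, was 305 ± 173 CPM in WT and 2701 ± 1694 CPM in FNcKO (log2 3.15, SE 0.83, edgeR, BH-adjusted p = 0.274). Ctsl, a lysosomal protease, was 1613 ± 428 and 3256 ± 117 CPM (log2 1.01, edgeR, BH-adjusted p = 0.375). Sned1, a matrix protein with domains like those of fibronectin, was 798 ± 272 and 232 ± 139 CPM (log2 −1.78, SE 0.47, edgeR, BH-adjusted p = 0.264). Htra1, a secreted serine protease, was 400 ± 96.2 and 860 ± 385 CPM (log2 1.11, edgeR, BH-adjusted p = 0.273).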
